A study of Rattus norvegicus with 48 samples.

Results

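Adenosine and the adenylates were examined through 8 rat genes listed by symbol: the adenylate kinases Ak1, Ak3 and Ak4, the AMP deaminases Ampd2 and Ampd3, adenosine kinase (Adk), adenosine deaminase (Ada) and an adenosine receptor (Adora2a). The rule names the genes by symbol and uses no measured value, although the genes were chosen with earlier results of these data known. Of these 8 genes, 7 had an Ensembl identifier in the copy of the study's tables used here and had reads in all samples, among 13050 genes tested. Ak1 was not analysed here. RNA-Seq was performed on cerebral endothelial cells (CECs) purified from the cortex of male Wistar-Han rats with free access to food (AL, ad libitum) or after a fast of 1 day (F1), 2 days (F2) or 3 days (F3). Each group held 3 biological samples, named i, j and k, and each sample was a pool of cortices from several rats, so that no value belongs to 1 animal. All cells, those of AL rats included, went through the same magnetic sort, which removed CD11b-positive cells and then retained CD31-positive cells.

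Adenylate kinases move a phosphate between adenine nucleotides (GTP serves as the donor for Ak3) and so tie the AMP level of a compartment to its energy state. Ak3 and Ak4 are both enzymes of the mitochondrial matrix. AMP has several fates: AMP deaminases turn it into IMP with release of ammonia, and nucleotidases turn it into adenosine. Adenosine in turn is phosphorylated back to AMP by Adk or deaminated to inosine by Ada, and outside the cell it acts on receptors such as that encoded by Adora2a, which raises cyclic AMP and is known for its part in vascular tone and in the permeability of brain endothelium.

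None of the 7 genes passed an adjusted p of 0.05 in any of the 7 tests of the edgeR quasi-likelihood fit. The gene nearest to the threshold was Ampd3, with a higher mean level in F1 and F3 than in AL, and the next were Ak4 and Adk, whose samples separated in opposite directions between the first and the second day of the fast, neither past the threshold. The call on Ampd3 depended on the processing, and the values with which it crossed the threshold are given with that gene. DESeq2, the package the study used, called Ampd3 in F1 against AL (adjusted p = 0.0279) and in the joint test (0.0221). It called Ak4 in F3 against F2 (0.0491), and 9.51%, 16% and 9.52% of all genes in these 3 tests. For Ampd2, Adora2a and Ada all groups overlapped, with wide intervals for Ada, and Ak3 was separated between F3 and AL alone, by a small difference that did not pass.

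Promoter sequence was at hand in RefSeq (build GRCr8) for 5 of the 7 genes: Ada, Adk, Ak3, Ak4 and Ampd2. Windows of 300 bases, from 250 bases before to 50 bases after the start of the gene, are printed for Ak4 and Adk because these genes had group levels that separated in opposite directions between F1 and F2. Each is written 5′ to 3′ on the strand of its gene, and capitals mark each GC box, searched as GGGCGG on both strands. The Ak4 window lies at chr5:121154886-121155185 on the + strand and the Adk window at chr15:3295696-3295995 on the - strand.
Ak4: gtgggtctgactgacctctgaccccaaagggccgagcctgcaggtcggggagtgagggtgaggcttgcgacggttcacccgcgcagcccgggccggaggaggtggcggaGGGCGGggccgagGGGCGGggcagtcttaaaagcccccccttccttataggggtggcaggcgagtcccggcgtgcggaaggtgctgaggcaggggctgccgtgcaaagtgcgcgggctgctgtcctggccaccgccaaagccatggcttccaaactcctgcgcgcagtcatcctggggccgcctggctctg
Adk: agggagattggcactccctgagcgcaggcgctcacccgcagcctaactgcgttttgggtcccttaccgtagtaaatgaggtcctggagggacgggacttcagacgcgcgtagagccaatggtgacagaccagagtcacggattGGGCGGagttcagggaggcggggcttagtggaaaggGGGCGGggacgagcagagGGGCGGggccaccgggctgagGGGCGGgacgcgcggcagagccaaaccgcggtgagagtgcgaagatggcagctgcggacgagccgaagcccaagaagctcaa

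The Ak4 window held 2 GC boxes and the Adk window 4, and in both genes all of them were on the strand shown. A GC box was present in the windows of all 5 genes, with 3 in Ada, 3 in Ak3 and 2 in Ampd2, against 33.1% of the 33469 promoter windows of this length in the table. The letters CCAAT, searched on both strands, occurred 3 times in the Adk window and in none of the other 4, against 37.5% of all windows, and 1 of the 3 overlapped the first GC box of Adk. The letters AGGTCA (a core recognised by nuclear receptors) occurred once, in the Ak4 window on the opposite strand, against 16.2% of all windows. The letters ACGTG (the core of a hypoxia response element) occurred in none of the 5 windows and in 19.3% of all windows. These matches describe the letters of the windows and not sites in use.

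The biological samples had 20718644 to 25960874 reads assigned to genes. Sample j of F2 stood apart from its group: the chi-square per degree of freedom between it and the other F2 samples, which is 1 for sampling noise alone, was 48.8 and 51.5, against 9.75 to 24.8 in the other 10 pairs of samples of a group, so the values for F2 that it moved most are also given without it. The labelled cell type was carried by its markers: the 5 endothelial markers with an identifier (Pecam1, Slco1c1, Slco1a4, Abcb1a and Slc2a1, of 9 listed) summed to 557400 to 607800 normalized counts in AL and 645300 to 688700 in F3, and the AL range lay below those of F1, F2 and F3. Slc2a1, a glucose transporter, makes up most of this sum and was higher in F3 than in AL (LFC 0.52, adjusted p = 0.0019), whereas the organic anion transporters Slco1c1 and Slco1a4 were lower (LFC -0.31 and -0.43, adjusted p = 0.0255 and 0.0077). Slc2a1, Slco1c1 and Slco1a4 had their identifiers from the study's table of transporters that changed in these samples. Their changes, and the shift of the sum that Slc2a1 dominates, are therefore not independent evidence. The pericyte markers Abcc9 and Anpep (2 of 6 listed) summed to 1762 to 4161 in AL, 1846 to 2098 in F1, 2186 to 4509 in F2 and 1473 to 4143 in F3, so that F1 lay below F2 and the other groups overlapped. The smooth muscle marker Acta2 (1 of 4 listed) lay at 130.4 to 210.7 in AL and 235.6 to 365.9 in F2, 6 of 8 microglial markers summed to 56.74 to 133.6 in all samples, the astrocyte marker Aldoc (1 of 5) lay at 1825 to 2155 in AL and 1545 to 1588 in F3, and the red blood cell marker Alas2 (1 of 3) at 36.09 to 110.3. A marker at 0 could not appear here, since only genes with at least 1 read in each sample were tested. The neuronal and oligodendrocyte lists had no marker with an identifier. Symbols with an identifier run for the most part from the start of the alphabet to Ccng1, so these 2 lists were not assessed. The part of the other cell types in the results was not tested. Fewer cells that express a gene and less of its RNA per cell cannot be told apart in such bulk samples.

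**Figure D1:**
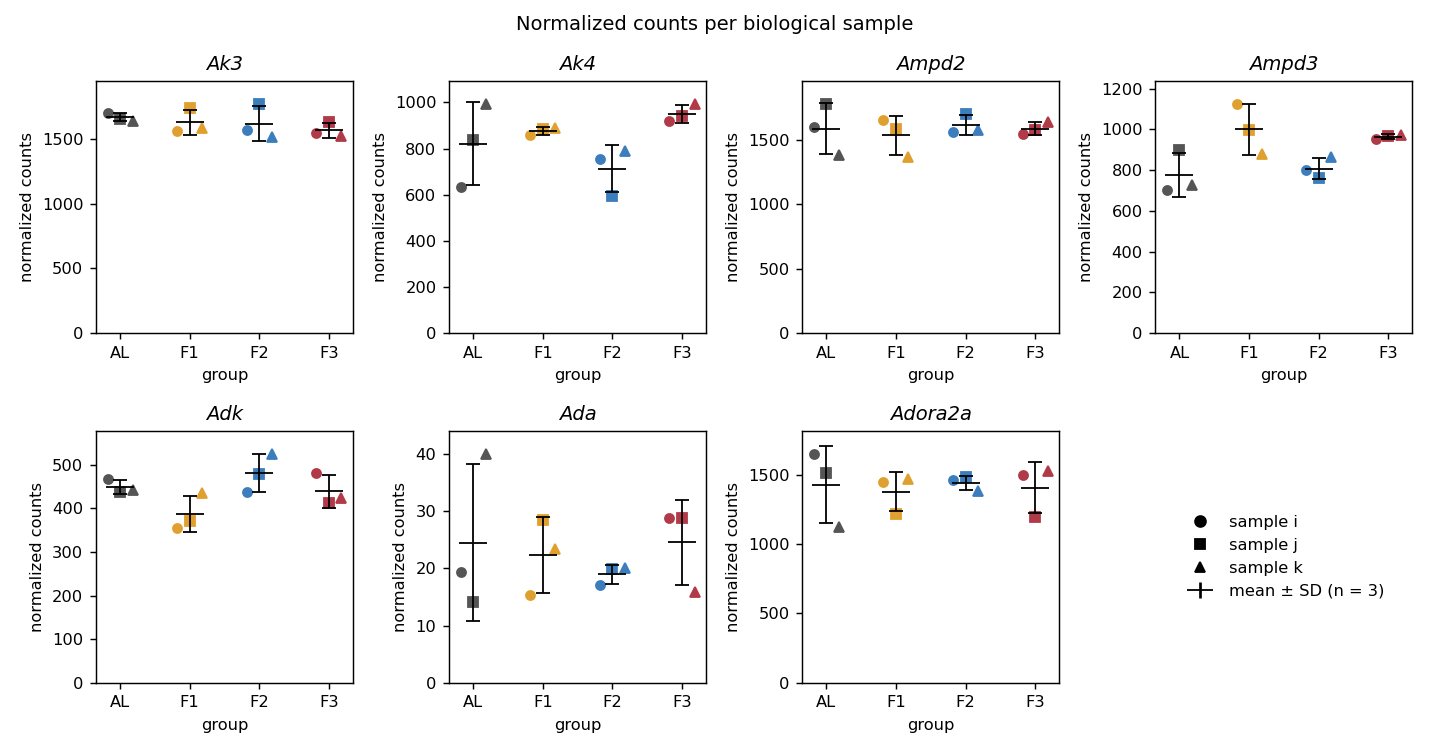
Normalized counts of the 7 genes (vertical axes, from 0) in each biological sample by group; circles, squares and triangles are samples i, j and k, and the bars give the mean ± SD of 3 samples. In Ampd3 the 3 F3 samples sat between 952 and 974, above every AL and F2 sample, and in Ak4 the 3 F3 samples lay above every F1 and F2 sample.

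Ak4 (ENSRNOG00000045738), the mitochondrial adenylate kinase known to be induced by hypoxia, stood lower in F2 and higher in F3 than in F1, without passing the test. Its normalized counts (counts scaled by the TMM library size) were 633, 837 and 993 in AL samples i, j and k, and 857, 883 and 890 in F1. They were 753, 596 and 788 in F2 and 918, 942 and 993 in F3. The F2 samples therefore lay below all F1 samples and the F3 samples above all F1 and F2 samples, while the AL samples spread from 633 to 993, with a mean of 821 ± 181 (SD, n = 3). The group means ran in the order F2 (712 ± 102), AL, F1 (876 ± 17.3) and F3 (951 ± 38.3), and of neighbours in this order only F1 and F3 did not overlap. Against AL, the log2 fold change (LFC) was 0.10 in F1 (SE 0.14, adjusted p = 0.747), -0.20 in F2 (SE 0.14, adjusted p = 0.576) and 0.21 in F3 (SE 0.14, adjusted p = 0.364). From F2 to F3 it was 0.42 (95% interval 0.12 to 0.71, adjusted p = 0.0902), which did not pass, and from F1 to F2 it was -0.30 (95% interval -0.59 to -0.0036, adjusted p = 0.284). Sample j of F2 had the lowest Ak4 level of all 12 samples. Without it the LFC of Ak4 was -0.089 in F2 against AL (adjusted p = 0.818), 0.30 from F2 to F3 (adjusted p = 0.242) and -0.19 from F1 to F2 (adjusted p = 0.534). DESeq2, by contrast, placed the difference between F3 and F2 past the threshold (adjusted p = 0.0491), as did the edgeR fit without AL sample i (adjusted p = 0.0370).

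Ak3 (ENSRNOG00000052506), the GTP-dependent adenylate kinase of the mitochondrial matrix, varied least among the 7 genes, with a coefficient of variation of 5.25% over the 12 samples. Its normalized counts were 1702, 1655 and 1641 in AL, 1559, 1740 and 1581 in F1, 1565, 1769 and 1516 in F2, and 1548, 1629 and 1521 in F3. All 3 F3 samples were below all 3 AL samples, but by little: the LFC of F3 against AL was -0.09 (SE 0.07, 95% interval -0.25 to 0.07, adjusted p = 0.496). In F1 and F2 the LFC against AL was -0.03 and -0.04, with groups that overlapped. The order of the means was AL (1666 ± 32.1), F1 (1627 ± 98.9), F2 (1617 ± 135) and F3 (1566 ± 56.1), and no neighbours in it were separated. The intervals of Ak3 against AL run from a ratio of 0.843 (the lower bound in F3) to a ratio of 1.09 (the upper bound in F1) over the 3 fasted groups.

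Ampd3 (ENSRNOG00000018262), an AMP deaminase best known from red blood cells and also expressed in other tissues, had the smallest p of the 7 genes. Its normalized counts were 700, 900 and 729 in AL and 1125, 998 and 877 in F1. They were 799, 763 and 862 in F2 and 952, 969 and 974 in F3. The F3 samples lay close together and above every AL and F2 sample, the F1 samples lay above every F2 sample, and F1 overlapped AL only through F1 sample k and AL sample j. The means ran from AL (776 ± 108) through F2 (808 ± 50.2) and F3 (965 ± 11.4) to F1 (1000 ± 124), and in this order F2 and F3 were separated while AL and F2, like F3 and F1, were not. Against AL the LFC was 0.37 in F1 (SE 0.11, 95% interval 0.14 to 0.59, adjusted p = 0.0553), 0.06 in F2 (SE 0.11, adjusted p = 0.866) and 0.31 in F3 (SE 0.11, 95% interval 0.09 to 0.54, adjusted p = 0.0708). From F1 to F2 the LFC was -0.31 (95% interval -0.53 to -0.08, adjusted p = 0.151) and from F2 to F3 it was 0.26 (95% interval 0.03 to 0.48, adjusted p = 0.170). The 3 comparisons with AL share the AL samples, and those with F2 share the F2 samples, so they are not independent of each other.

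The position of Ampd3 relative to the threshold changed with the processing. In F1 against AL, Ampd3 passed with DESeq2 (adjusted p = 0.0279), with upper-quartile factors (0.0486), without a filter on low counts (0.0391) and without the technical replicate whose label conflicts (0.0458). In F3 against AL, Ampd3 passed when only the 6 samples compared were fitted (adjusted p = 0.0411), but not with DESeq2. Leaving out AL sample j, the highest AL value, gave an Ampd3 LFC of 0.48 in F1 (adjusted p = 0.0179) and 0.43 in F3 (adjusted p = 0.0200). Leaving out the F2 sample j gave Ampd3 adjusted p-values of 0.0326 in F1 and 0.0448 in F3 at LFCs of 0.37 and 0.31, and leaving out F1 sample k gave 0.0357 in F1. Over all samples left out in turn, the adjusted p of Ampd3 ranged from 0.0179 to 0.209 in F1 and from 0.0200 to 0.243 in F3, and its LFC from 0.27 to 0.48 and from 0.24 to 0.43. Without F2 sample j, the Ampd3 LFC from F1 to F2 was -0.27 (adjusted p = 0.248) and that from F2 to F3 was 0.22 (adjusted p = 0.316).

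Ampd2 (ENSRNOG00000019240), the other AMP deaminase, had groups that overlapped throughout. Its normalized counts were 1602, 1779 and 1380 in AL, 1657, 1584 and 1364 in F1, 1561, 1704 and 1575 in F2, and 1544, 1573 and 1640 in F3. The means lay between 1535 (F1) and 1613 (F2), with an SD of 200 in AL. The LFC against AL was -0.05 in F1 (95% interval -0.25 to 0.15), 0.02 in F2 (95% interval -0.18 to 0.23) and -0.0013 in F3 (95% interval -0.20 to 0.20), with adjusted p-values from 0.819 to 0.996. The difference between the responses of Ampd2 and Ampd3 was not tested.

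**Figure D2:**
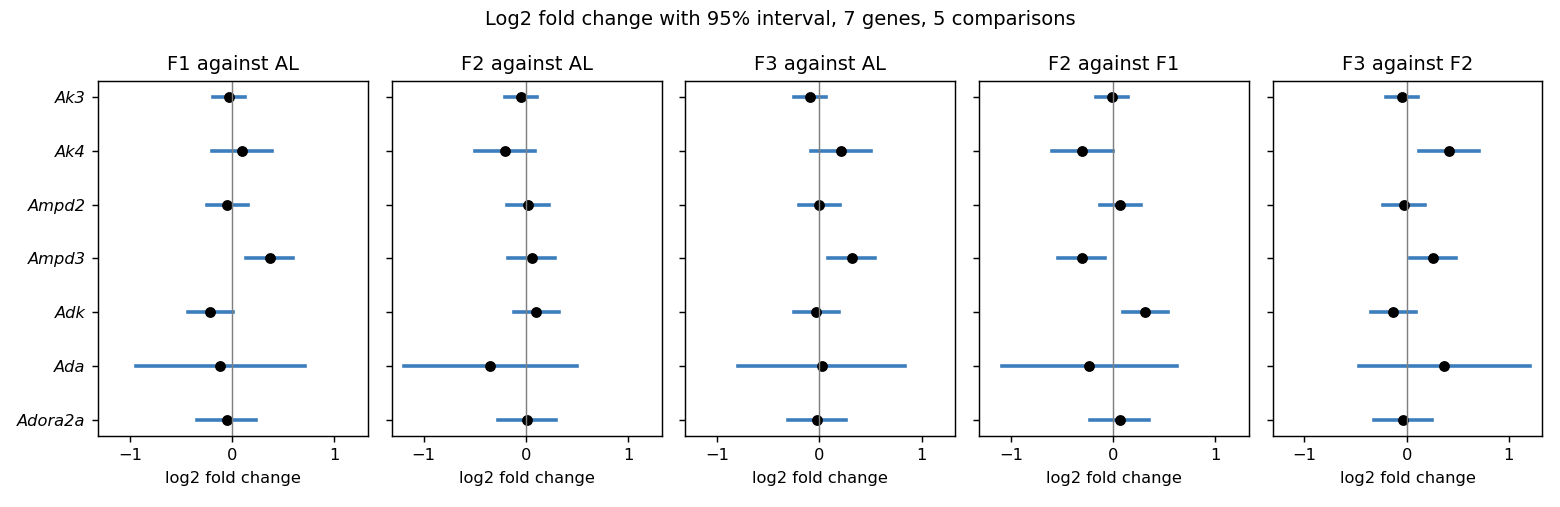
Log2 fold change (horizontal axis) of the 7 genes in 5 comparisons; points are the edgeR estimates and lines their 95% intervals. The interval of Ampd3 lay above 0 in F1 and F3 against AL, those of Adk and Ak4 lay on opposite sides of 0 in F2 against F1, and Ada had the widest intervals; none of the adjusted p-values was at or below 0.05.

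Adk (ENSRNOG00000012325), which removes adenosine by turning it back into AMP, had its lowest mean on the first day of the fast. Its normalized counts were 467, 436 and 442 in AL, 355, 371 and 434 in F1, 438, 480 and 525 in F2, and 482, 412 and 423 in F3. Every F1 sample was below every AL and F2 sample, although F1 sample k, at 434, stood next to AL sample j, at 436. The F3 samples overlapped each other group. The means ran from F1 (387 ± 42.0) through F3 (439 ± 37.6) and AL (448 ± 15.99) to F2 (481 ± 43.6), and no neighbours in this order were separated. Against AL the LFC of Adk was -0.21 in F1 (SE 0.10, 95% interval -0.44 to 0.0071, adjusted p = 0.261), 0.10 in F2 (SE 0.10, adjusted p = 0.728) and -0.03 in F3 (SE 0.10, adjusted p = 0.891). From F1 to F2 it was 0.31 (95% interval 0.09 to 0.54, adjusted p = 0.135), and 0.32 without F2 sample j (adjusted p = 0.166). The pericyte marker sum separated F1 from F2 in the same direction (Anpep LFC 0.98, adjusted p = 0.178; Abcc9 LFC 0.81, adjusted p = 0.321), and with that sum as a covariate the LFC of Adk from F1 to F2 was 0.24 (adjusted p = 0.328).

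Ada (ENSRNOG00000010265), which deaminates adenosine to inosine, was read too rarely for a comparison of moderate differences. It had 14 to 36 reads per sample before scaling, and its normalized counts were 19.32, 14.04 and 40 in AL, 15.2, 28.4 and 23.3 in F1, 17.0, 19.8 and 20.1 in F2, and 28.8, 28.8 and 15.9 in F3. AL sample k was the highest of the 12 and AL sample j the lowest, so all fasted groups overlapped AL. The LFC against AL was -0.12 in F1, -0.35 in F2 and 0.02 in F3, with 95% intervals of -0.95 to 0.71, -1.19 to 0.50 and -0.79 to 0.84, so that a 1.79-fold higher level in F3 lay within the interval at this depth. The order of the Ada means, from F2 (19.0 ± 1.7) through F1 (22.3 ± 6.6) to AL (24.5 ± 13.7) and F3 (24.5 ± 7.5), held no separated neighbours.

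Adora2a (ENSRNOG00000001302), an adenosine receptor that couples to Gs, had like means in the 4 groups and a wide spread within 3 of them. Its normalized counts were 1651, 1513 and 1120 in AL, 1449, 1214 and 1466 in F1, 1458, 1480 and 1382 in F2, and 1494, 1195 and 1528 in F3. All groups overlapped, and the order of the means was F1 (1376 ± 141), F3 (1406 ± 183), AL (1428 ± 275) and F2 (1440 ± 51.4). The LFC against AL was -0.05 in F1 (95% interval -0.34 to 0.23), 0.01 in F2 (-0.27 to 0.30) and -0.02 in F3 (-0.31 to 0.26), with adjusted p-values of 0.860, 0.984 and 0.938. As ratios to AL, these intervals of Adora2a run from 0.79 (the lower bound in F1) to 1.23 (the upper bound in F2).

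The levels of Adora2a and Adk correlated with the pericyte marker sum over the 12 samples, but for Adora2a the full order held within AL alone. In AL, Adora2a stood at 1651, 1513 and 1120 in samples i, j and k, where the sum of Abcc9 and Anpep was 4161, 2553 and 1762, and in F3 the lowest Adora2a level stood in the sample with the lowest sum (1473). The highest F3 level (1528) stood in sample k, whose sum was 2776, and not in sample i, with 1494 and the highest sum (4143). In F1 the lowest Adora2a level (1214) stood in sample j, and not in sample i, which had the lowest sum (1846). In F2 sample k, with the highest sum (4509), had the lowest Adora2a level of its group. Over the 12 samples, which share libraries and scaling with the markers, Pearson's r on the log2 scale was 0.61 for Adora2a and 0.65 for Adk (Spearman's rho 0.62 and 0.69). Within groups r was 0.63 for Adora2a and 0.48 for Adk, and without the 2 samples farthest from the median of the sum (AL sample i and F2 sample k) it was 0.63 and 0.48. Over all genes tested, the 5th and 95th percentiles of r were -0.49 and 0.53, with a median of -0.03. The other 5 genes had r between -0.38 (Ak4) and 0.14 (Ampd2). With the marker sum as a covariate in the fit, an alternative chosen after seeing the data, none of the 7 genes passed in any of the 7 tests, and the part of pericytes in the levels of Adora2a and Adk was not tested further.

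**Figure D3:**
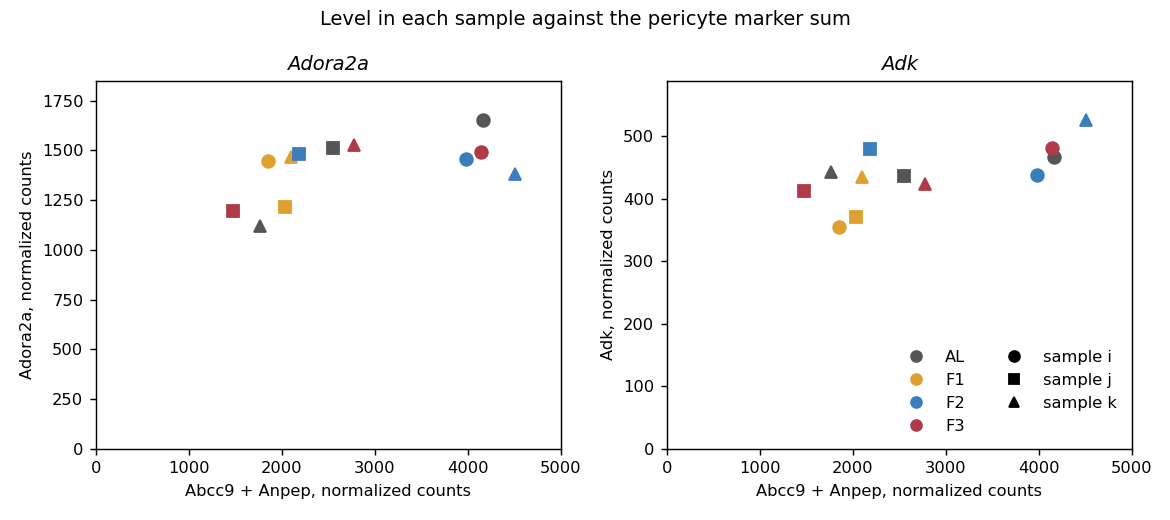
Normalized counts of Adora2a and Adk (vertical axes, from 0) against the summed normalized counts of the pericyte markers Abcc9 and Anpep (horizontal axes), 1 point per biological sample; colours mark the groups and shapes the samples i, j and k. Adora2a was lowest in AL sample k and F3 sample j, at 1120 and 1195, where the marker sum was also lowest, at 1762 and 1473.

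Counts over the 7 genes were read against the same counts over all 13050 genes. In F1 against AL, edgeR called 0 of the 7 (6.56% of all genes), 1 had an unadjusted p under 0.05 (Ampd3; 20.6% of all genes), 1 had groups that did not overlap (Adk; 28.7%), and DESeq2 called 1 (Ampd3; 9.51%). In F2 against AL edgeR and DESeq2 called 0 of 7 (0.858% and 2.75% of all genes), none had an unadjusted p under 0.05 (12.8%) and none had separate groups (15.5%). In F3 against AL edgeR and DESeq2 called 0 of 7 (12% and 14.4% of all genes), Ampd3 had an unadjusted p under 0.05 (26%), and Ak3 and Ampd3 had separate groups (35.6%). The medians of the 7 LFCs were -0.05 in F1, 0.01 in F2 and -0.0013 in F3, beside -0.0043, -0.0085 and -0.0053 over all genes.

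The differences between the days of the fast were counted in the same way. In F2 against F1 edgeR and DESeq2 called 0 of 7 (1.43% and 4.72% of all genes), while Adk, Ak4 and Ampd3 had an unadjusted p under 0.05 (3 of 7; 17.3% of all genes), and the same 3 had separate groups (21.8%). Without F2 sample j, Ak4 no longer had an unadjusted p under 0.05 there (2 of 7 left, 16.6% of all genes). In F3 against F2 edgeR called 0 of 7 (5.94%), DESeq2 called Ak4 (1 of 7; 9.52%), Ak4 and Ampd3 had an unadjusted p under 0.05 (2 of 7; 22%), and both had separate groups (26.8%), but without F2 sample j only Ak4 had such a p (1 of 7; 19.7% of all genes). In F3 against F1 edgeR called 0 of all 13050 genes and DESeq2 24 (0.184%), 0 of 7 in each case, none of the 7 had an unadjusted p under 0.05 (579 of all genes, 4.44%), and Ak4 alone had separate groups (13%). In the joint test of the 4 groups edgeR called 0 of 7 (10.1% of all genes), Ampd3 had an unadjusted p under 0.05 (adjusted p = 0.0660; 24.8% of all genes) and DESeq2 called Ampd3 (adjusted p = 0.0221; 16%). The joint adjusted p was 0.211 for Ak4 and 0.214 for Adk.

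Other parts of the pathway were followed through a list of 55 further genes, of which 20 had an identifier, all of them tested. Symbols with an identifier run for the most part from the start of the alphabet to Ccng1, so whole branches could not be matched to the counts and were not assessed. None of the 6 AMP-activated kinase subunits, 5 cytosolic nucleotidases and 5 purine salvage genes listed had an identifier. Of 7 nucleoside carriers and 6 ecto-nucleotidases listed, 1 each had an identifier. In F1 and F2 against AL none of these 20 genes was called by edgeR (6.56% and 0.858% of all genes) or DESeq2 (9.51% and 2.75%). An unadjusted p under 0.05 was found for 4 of them in F1 and 5 in F2 (20.6% and 12.8% of all genes), and for 3 in F2 without F2 sample j (13.9%). In F3 against AL, 3 of the 20 had an unadjusted p under 0.05 (26% of all genes) and 5 had separate groups (35.6%). The same 3 genes were called by edgeR and DESeq2 (12% and 14.4% of all genes). All 3 fell (5.77% of all genes were called lower by edgeR) and none rose. These were Slc29a3, an equilibrative nucleoside transporter of intracellular membranes, Adcy4, an adenylyl cyclase, and Adss, the adenylosuccinate synthase that commits IMP to AMP. Slc29a3 was among the 20 because the study's table of transporters that changed in these samples gave its identifier. The counts that include Slc29a3 are therefore not independent evidence. The median LFC of the 20 was -0.08 in F1, -0.0019 in F2 and 0.0074 in F3.

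Slc29a3 stood at 271, 253 and 268 normalized counts in AL and at 180, 192 and 180 in F3, and its F1 (203, 216 and 258) and F2 samples (220, 264 and 233) overlapped AL, with means between those of AL and F3. The LFC in F3 was -0.52 (SE 0.12, adjusted p = 0.0101), and Slc29a3 was the one gene of the 20 that edgeR called in the joint test (adjusted p = 0.0458; 10.1% of all genes). That joint call of Slc29a3 was lost with upper-quartile factors (adjusted p = 0.0572), without a filter on low counts (0.0658) and in 8 of the 12 fits that left out 1 sample (AL samples i, j and k, F1 sample j, F2 sample k and F3 samples i, j and k). Over these 12 fits its joint adjusted p ranged from 0.0271 to 0.146. Its identifier came from the study's table of transporters that changed in these samples, so that neither its calls nor its direction are independent evidence.

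Adcy4, which makes cyclic AMP, stood at 3583, 3723 and 3745 in AL and at 2895, 3177 and 2839 in F3, and its groups did not overlap. The LFC of Adcy4 in F3 was -0.31 (SE 0.08, adjusted p = 0.0172), and without AL sample k, F3 sample i or F3 sample k the adjusted p rose to 0.0564, 0.0797 and 0.0783. Adss stood at 1724, 1862 and 1998 in AL and at 1532, 1658 and 1586 in F3, with an LFC of -0.23 (SE 0.07, adjusted p = 0.0481). The call on Adss was lost with upper-quartile factors (adjusted p = 0.0559) and without a filter on low counts (0.106). With 1 sample left out at a time, it was kept only without AL sample i or without F2 sample j. Over all samples left out in turn, the adjusted p of Adss ranged from 0.0230 to 0.179. The other adenylyl cyclases with an identifier (5 genes), the other genes of AMP synthesis (Adsl, Aprt and Atic), Ak6, the receptor gene Adora2b and the 3 genes of adenosylhomocysteine hydrolysis did not pass in F3, nor did Adal, Ampd1 and the phosphatase Alpl. In F2 against F1, F3 against F2 and F3 against F1, edgeR called 0 of the 20 (1.43%, 5.94% and 0% of all genes) and DESeq2 1, 1 and 0 (4.72%, 9.52% and 0.184%), with an unadjusted p under 0.05 for 4, 3 and 2 of them (17.3%, 22% and 4.44%).

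**Figure D4:**
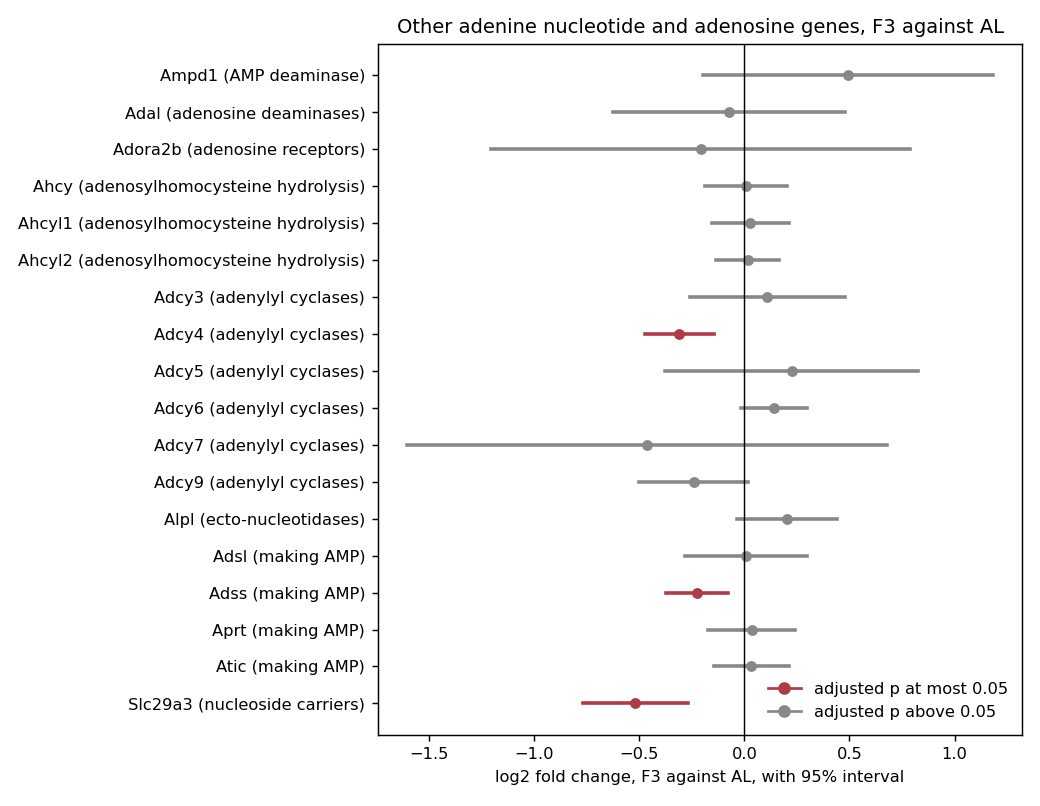
Log2 fold change of F3 against AL (horizontal axis) for 18 of the 20 further adenine nucleotide and adenosine genes, with 95% intervals; red marks the 3 genes with an adjusted p of at most 0.05. Slc29a3, Adcy4 and Adss lay at -0.52, -0.31 and -0.23, and the widest intervals were those of rarely read genes such as Adcy7 and Adora2b.

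For Ampd3, Ak4 and Adk, the 3 genes with the smallest p in the joint test, the most similar genes over the 12 samples were sought among 1263 others with a symbol and a mean of at least 100 normalized counts. The measure was Pearson's r of log2 CPM (prior count 2). Among those most like Ampd3 were Acer2 (r = 0.89) and Bmp2k (0.87). Those most like Ak4 were Arid3a (0.92), B3galnt1 (0.90) and Aggf1 (0.88), and those most like Adk were Ajuba (0.77), Acot7 (0.77) and Brpf3 (0.76). These genes were picked as the highest of many over the same samples and share their library, depth and scaling, and no test was made on them. The symbols searched run from the start of the alphabet to Ccng1 for the most part, so that genes later in it were not compared.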

How the data were processed

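RNA from CECs of 12 biological samples (3 per group) was sequenced as 4 technical replicates each, giving 48 files. Read trimming and quality filtering by the authors were followed by alignment with STAR to Rnor_6.0 (Ensembl annotation), removal of reads with several matches and counting on exons with HTSeq 0.5.3, so that reads shared by near-identical genes are not in the counts. The deposited values are raw counts per Ensembl gene, without normalization. The library kit was strand-specific, and the strand setting of the counting is not given in the sources used here.

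Technical replicates were summed per sample (20718644 to 25960874 assigned reads). They differed by no more than 1.02 times the sampling noise (chi-square per degree of freedom on features with at least 20 reads). Technical replicate d of F1 sample k carries labels of both F1 and a 2-day fast. It was kept in F1, since its title names that sample, and its counts did not differ from those of replicates a to c (chi-square test, p = 0.427). Genes with at least 1 read in each sample were tested with edgeR 4.0.16 in R 4.3.3 (TMM, 4 group means, quasi-likelihood F-test with robust estimation of the spread). Benjamini-Hochberg adjustment covered the 13050 genes tested, and the threshold was an adjusted p of 0.05. Intervals are 95% intervals from the same fit. A normalized count is the count over the effective library size (TMM), brought back to the mean effective library size. Transcript lengths were not used, so levels are not compared between genes. The study itself fitted DESeq2, in another version. Here DESeq2 1.42.0 was run as an alternative, and it and the other alternatives are described in the closing section. The edgeR script was tested on simulated data. Each sample is a pool of animals, so p-values measure the spread between pools.

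Samples with the same letter were checked for pairing: the correlations of their deviations from the group means ran from -0.017 to 0.139 over 18 pairs, and those with other letters from -0.193 to 0.204. Most correlations of the same letter were above 0. The letter was not used as a block in the main fit, and a fit with this block was run as an alternative. Symbols come from the study's supplementary tables, except that Pecam1 was paired by the name of its feature. The copy of the main gene table used here was cut after Ccng1, so that 2043 of the genes tested had a symbol. This limit is one of the copy and not of the study's table. Members and lists were chosen with earlier results of these data known. The text names all 8 listed genes, each further pathway gene past the threshold, and for the 3 members with the smallest joint p the 3 genes with the highest correlation. The values of a few of these genes are left out. Promoter windows were matched by gene identifier to RefSeq (GRCr8). No coordinates were taken across builds.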

Additional observations from a re-analysis of the deposited data

How the results depend on the processing

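The count of 0 called genes among the 7 held in F2 against AL, F2 against F1 and F3 against F1 under every alternative run. It became 1 (Ampd3) in F1 against AL with upper-quartile factors, DESeq2, no filter on low counts or the technical replicate with conflicting labels removed, 1 (Ampd3) in F3 against AL with only the 6 samples compared, 1 (Ak4) in F3 against F2 with DESeq2, and 1 (Ampd3) in the joint test with DESeq2 or no filter. Over all genes, F1 against AL had 822 of 13050 called with upper-quartile factors and 1241 of 13050 with DESeq2. It had 739 of 18780 with no filter and 858 of 13018 without that technical replicate. F3 against AL had 2031 of 13050 with the 6 samples, and F3 against F2 1242 of 13050 with DESeq2. The joint test had 2090 of 13050 with DESeq2 and 1248 of 18780 with no filter. With 1 sample left out at a time the count among the 7 ranged from 0 to 1 in these 4 tests. The 20 further genes gave 1 call with total counts in F1 against AL (Adss), 1 with DESeq2 in F2 against F1 (Ahcy) and 1 in F3 against F2 (Slc29a3). In these 3 settings 968, 616 and 1242 of all 13050 genes were called. In the joint test the 20 genes gave 0 with upper-quartile factors, no filter or the replicate block, 2 with total counts or the pericyte marker covariate (Slc29a3 and Adcy4), and 4 with DESeq2 (Ahcy, Slc29a3, Adcy3 and Adcy4; Ahcy and Adcy3 were named after their values were seen). Over all 13050 genes the joint test called 1273 with upper-quartile factors and 1198 with the replicate block. It called 1379 with total counts, 1242 with the covariate and 2090 with DESeq2. Leaving out 1 sample at a time gave 0 to 1 calls among the 20 in F1 against AL, 1 to 3 in F3 against AL and 0 to 3 in the joint test. The 3 joint calls came without F2 sample j. Over all genes these fits called 306 of 13108 to 1451 of 13090 in F1 against AL. In F3 against AL they called 790 of 13078 to 2366 of 13090. In F3 against F2 they called 164 of 13078 to 755 of 13083, and in the joint test 738 of 13078 to 1782 of 13090. The replicate block left 0 of the 7 genes called in all 7 tests, and the calls of Adss in F3 against AL (adjusted p = 0.0598) and of Slc29a3 in the joint test were lost with it; it changed no other call. The pericyte covariate and a fit without robust estimation of the spread were chosen after seeing the data.

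Of 35 LFCs of the 7 genes, 16 kept their sign under all alternatives, among them those of Ampd3 in F1 and F3 against AL, of Ak4 in F3 against F2 and of Adk in F2 against F1. The LFC of Ampd2 in F3 against AL turned to 0.0027 (DESeq2 size factors), 0.0042 (upper-quartile factors), 0.0026 (DESeq2), 0.0072 (no filter), 0.0021 (at least 10 reads), 0.0071 (filterByExpr) and 0.0062 (replicate block). With total counts, LFCs turned to -0.027 for Ada in F3, -0.025 for Adora2a and -0.011 for Ampd2 in F2, all against AL, and 0.017 for Ak3 in F2 against F1, which was 0.015 with upper-quartile factors and 0.036 with the pericyte covariate. That covariate also turned the LFC of Adora2a to 0.045 in F1 and -0.047 in F2 against AL, -0.092 in F2 against F1 and 0.039 in F3 against F2. With 1 sample left out at a time, the LFC against AL ranged as follows. For Ada the range was -0.40 to 0.41 in F1, -0.63 to 0.18 in F2 and -0.26 to 0.55 in F3. For Adora2a it was -0.20 to 0.064 in F1, -0.14 to 0.13 in F2 and -0.17 to 0.095 in F3. For Ampd2 it was -0.14 to 0.034 in F1, -0.066 to 0.11 in F2 and -0.093 to 0.081 in F3. It was -0.063 to 0.25 for Ak4 in F1, -0.11 to 0.0006 for Ak3 and -0.0091 to 0.17 for Ampd3 in F2, and -0.10 to 0.013 for Adk in F3. From F1 to F2 it was -0.017 to 0.11 for Adora2a, -0.079 to 0.042 for Ak3 and -0.0064 to 0.13 for Ampd2, and from F2 to F3 it was -0.10 to 0.069 for Adora2a, -0.090 to 0.024 for Ak3 and -0.051 to 0.017 for Ampd2. The causes were not tested. Groups of 3 samples and the read numbers of Ada limit what could be seen.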
